A study of Mus musculus with 295 samples.

Results

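The leukocyte immunoglobulin-like receptors were followed through 4 genes, Lilrb4a, Lilr4b, Pira1 and Lilra6, in adipose tissue of 295 F2 mice. They were taken by symbol from the platform's probe table, with 1 probe each, out of 11633 genes with a single symbol and 23387 probes in all. They had been picked for the way they vary together over the arrays, before and after the level of the macrophage genes Adgre1 and Cd68 is removed, and for the number of modes of their distributions. Their covariation and their modes are therefore given as a description, without a test. The mice were F2 offspring of C57BL/6J and C3H/HeJ, both parental strains on an ApoE null background, and were kept on Western diet, rich in fat, between week 8 and week 24 of life. Every mouse, and so the pool it was compared with, carried that deletion and that diet. The labels put all mice in 1 group of females and males, with no sex, genotype or body weight for any single mouse, so the 295 mice form 1 series of individuals. Each array compared 1 mouse (Cy3) with a common pool of equal RNA portions from all mice (Cy5), and values are log2 ratios of mouse over pool. Ratios to a pool of the same tissue carry no absolute level, so the adipose label cannot be checked by presence of markers, and spans describe each probe's own ratio. Of 15 adipocyte genes listed, 10 were measured. Fold sizes rest on reading the deposited values as log10 ratios.

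Leukocyte immunoglobulin-like receptors sit on the surface of myeloid cells such as macrophages, neutrophils and mast cells. They come in pairs of inhibitory and activating forms with similar outer domains: inhibitory forms carry tyrosine motifs in their tails that recruit the phosphatases Ptpn6, Ptpn11 and Inpp5d, and activating forms signal through the adaptor Fcer1g and the kinase Syk. Lilrb4a, also known as gp49B, is an inhibitory receptor that binds an integrin. Lilr4b, also known as gp49A, is its close relative without the inhibitory motifs. Pira1 and Lilra6, the latter also known as Pira3, are paired immunoglobulin-like receptors of the A type, the activating counterparts of Pirb, with class I major histocompatibility molecules as known ligands. In adipose tissue, macrophages gather as fat depots expand. Because these are bulk samples, fewer macrophages and less RNA per macrophage cannot be told apart.

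The genes lie at 2 loci. In the RefSeq gene order Lilr4b and Lilrb4a are next to each other on chromosome 10, and Lilra6 lies 7 genes along from Pira1 on chromosome 7. The 250 bases before the start of 3 of the 4 genes are printed here to show how alike or unalike the upstream sequences of genes that vary together are. They come from RefSeq on GRCm38.p6, at chr7:3739918-3740167 (minus strand) for Pira1, chr7:3915502-3915751 (minus strand) for Lilra6 and chr10:51480362-51480611 (plus strand) for Lilr4b. Capitals mark GAGGAA or its reverse complement TTCCTC, a purine-rich core of the kind bound by the myeloid transcription factor Spi1, searched on both strands as the only motif.
Pira1: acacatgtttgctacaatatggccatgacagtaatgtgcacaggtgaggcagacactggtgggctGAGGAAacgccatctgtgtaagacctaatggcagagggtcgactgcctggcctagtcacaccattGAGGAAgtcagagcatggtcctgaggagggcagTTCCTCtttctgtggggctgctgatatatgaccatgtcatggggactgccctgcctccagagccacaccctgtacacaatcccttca
Lilra6: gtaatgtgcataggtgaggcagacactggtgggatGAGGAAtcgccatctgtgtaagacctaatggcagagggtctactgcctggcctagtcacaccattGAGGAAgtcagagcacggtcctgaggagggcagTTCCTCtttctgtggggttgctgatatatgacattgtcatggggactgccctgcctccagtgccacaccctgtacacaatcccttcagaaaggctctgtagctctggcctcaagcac
Lilr4b: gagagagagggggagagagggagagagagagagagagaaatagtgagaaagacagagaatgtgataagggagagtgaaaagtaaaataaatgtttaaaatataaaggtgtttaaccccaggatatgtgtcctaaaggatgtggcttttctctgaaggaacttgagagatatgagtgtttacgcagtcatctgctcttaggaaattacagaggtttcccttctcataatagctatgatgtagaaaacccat
The Pira1 and Lilra6 windows aligned over 220 bases with 95.9% identity, and the Pira1 window was 98.0% identical over 250 bases to that of Pirb. Both Pira1 and Lilra6 held 3 of these motifs in the same order, 2 forward and 1 reverse. Of 32851 RefSeq windows of that length, 23.3% held at least 1 and 0.429% held 3 or more. The Lilr4b window held none, and its best local alignments with Pira1 and Lilra6 spanned 18 and 14 bases, too short to compare. Because these genes are near copies within each locus, a probe of one may also bind transcripts of the other, which was not tested.

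All 4 genes varied widely between mice. Between 117 (Lilrb4a) and 134 (Lilra6) of the 295 mice lay above the pool. Lilrb4a ran from a log2 ratio of -2.76 in mouse 38 over a median of -0.24 to 2.58 in mouse 56, with quartiles of -0.99 and 0.43, an SD of 1.03 ± 0.04 (SE, n = 295) and a 9.91-fold span of the middle 90% of mice. Lilr4b ran from -2.39 in mouse 46 over -0.21 to 3.01 in mouse 56, with quartiles of -0.91 and 0.39, an SD of 0.97 ± 0.04 and a 9.46-fold span. Both genes were measured in the same mice, so these SEs do not tell whether the SDs differ, which was not tested. Pira1 ran from -2.32 in mouse 46 over -0.14 to 2.64 in mouse 56, with quartiles of -0.60 and 0.41, an SD of 0.83 ± 0.03 and a 7.27-fold span. Lilra6 had the narrowest range, from -1.80 in mouse 46 over -0.06 to 2.23 in mouse 56, with quartiles of -0.44 and 0.29, an SD of 0.62 ± 0.03 and a 4.10-fold span. One mouse, number 56, was thus the highest for every receptor, and mouse 46 was the lowest for 3 of them. The median SD over all 22894 probes analysed was 0.29. Ranked by SD among 11454 genes, the receptors stood at 392 (Lilrb4a), 449 (Lilr4b), 670 (Pira1) and 1287 (Lilra6). Adgre1, which encodes the macrophage surface protein F4/80, had an SD of 0.91 and Cd68, a lysosomal protein of macrophages, one of 0.79.

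By kernel density the receptors did not stand apart from most probes in their number of modes. A Gaussian kernel density of each receptor had 1 mode, at -0.19 for Lilrb4a, -0.18 for Lilr4b, -0.28 for Pira1 and -0.06 for Lilra6. After a linear fit on Adgre1 and Cd68 was subtracted, each again had 1 mode. Over all probes, 3.97% had at least 2 modes before this subtraction and 3.87% after it, so a single mode is no trait of these receptors. A mixture of Gaussian curves chosen by the Bayesian information criterion gave 1 component for each receptor before the subtraction and 2 for each after it. That criterion gave 2 or more components to 61.8% of all probes before and 63.6% after, so the members' count after the subtraction stands against a high background.

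Most of this variation moved with the macrophage genes. Adgre1 and Cd68 together accounted for 85.5% of the variance of Lilrb4a, 81.8% of that of Lilr4b, 77.6% of that of Pira1 and 57.8% of that of Lilra6. The median over all probes was 7.52%, and 487 probes reached at least the Lilra6 value. The correlation with Adgre1 was 0.91, 0.87, 0.84 and 0.73 for Lilrb4a, Lilr4b, Pira1 and Lilra6, and with Cd68 it was 0.91, 0.90, 0.88 and 0.76. Adgre1 and Cd68 themselves had an r of 0.93. In the joint fit all 4 receptors had the larger slope on Cd68 (log2 per log2). It was 0.61 against 0.54 on Adgre1 for Lilrb4a, 0.76 against 0.32 for Lilr4b, 0.71 against 0.20 for Pira1 and 0.44 against 0.15 for Lilra6. With Adgre1 and Cd68 so closely correlated these slopes are hard to separate, and their differences were not tested. What remained was of like size for all 4 receptors, with residual SDs of 0.39 for Lilrb4a, 0.41 for Lilr4b, 0.39 for Pira1 and 0.40 for Lilra6. The middle 90% of these residuals still spanned 2.41-fold, 2.54-fold, 2.41-fold and 2.44-fold.

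Before the macrophage genes were removed, all 6 pairs of receptors were strongly correlated, and the removal lowered the pairs of the same locus least. Lilrb4a and Lilr4b had an r of 0.98 before and 0.88 after (95% interval 0.85 to 0.90). Pira1 and Lilra6 had an r of 0.93 before and 0.86 after (0.83 to 0.89). The 4 pairs across the loci fell further. Lilrb4a with Pira1 went from 0.92 to 0.60 (0.52 to 0.67), and Lilrb4a with Lilra6 from 0.84 to 0.55 (0.46 to 0.62). Lilr4b with Pira1 went from 0.90 to 0.53 (0.45 to 0.61), and Lilr4b with Lilra6 from 0.82 to 0.47 (0.38 to 0.56). Spearman's rho after the removal was 0.87 and 0.86 within the loci and 0.43 to 0.56 across them. Without the 2 mice farthest from the median, the within-locus values were 0.87 and 0.86. The same receptors in the same arrays enter every pair, so the 6 values are not independent.

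The coupling within each locus remained when the other locus was removed too. With Adgre1, Cd68 and the mean of Pira1 and Lilra6 removed, Lilrb4a and Lilr4b had an r of 0.83 (95% interval 0.79 to 0.86). With Adgre1, Cd68 and the mean of Lilrb4a and Lilr4b removed, Pira1 and Lilra6 had an r of 0.80 (0.76 to 0.84). The means of the 2 loci had an r of 0.89 before and 0.57 (0.49 to 0.65) after Adgre1 and Cd68 were removed. Among 22893 other probes, 2 reached a residual r of 0.8 with Lilrb4a, and likewise 2 with each of the other receptors, which is 0.00874% of the probes. At a residual r of 0.5 the loci differed: 341 probes reached it with Lilrb4a and 162 with Lilr4b, against 22 with Pira1 and 14 with Lilra6.

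Mice that stood far above the level given by Adgre1 and Cd68 often did so for both loci. Mouse 56 had residuals of 1.28 for Lilrb4a, 1.66 for Lilr4b, 1.49 for Pira1 and 1.45 for Lilra6. Mouse 104 had 1.29, 1.39, 1.19 and 1.03 in the same order. Mouse 170 was the highest of all for the chromosome 10 pair, with 1.56 for Lilrb4a and 1.75 for Lilr4b, and stood lower for Pira1 (0.77) and Lilra6 (0.59). Mouse 50 had the highest Lilra6 residual, 1.61, beside 0.94 for Pira1 and low levels of Adgre1 (-1.45) and Cd68 (-1.33). At the other end mouse 323 was low throughout, with -0.74, -0.91, -0.78 and -0.61. Mouse 9 was lowest for Lilra6, at -1.21, and mouse 278 was lowest for Lilr4b, at -0.91.

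A few mice parted genes of the same locus. Mouse 83 had a Lilrb4a level of -2.0 and a Lilr4b level of -0.41, and mouse 193 went the other way, with -0.10 and -1.08. These departures were 9.67 and -7.54 robust SDs from the line through all mice. Mice 226 (-2.75 and -1.77) and 37 (-2.13 and -1.23) came next, at 4.93 and 4.68. Both had low levels of the pair, with Lilr4b above the line. Of the mice with Lilrb4a below -2.0, mouse 46 alone had the lower ratio for Lilr4b, at -2.39 against -2.30. Mice 38 (-2.76 and -2.06) and 214 (-2.25 and -1.43), for example, had the higher ratio for Lilr4b. Whether low levels go with such departures was not tested. For the chromosome 7 pair, mouse 50 departed most, with Pira1 at -0.27 and Lilra6 at 0.87, which is 5.95 robust SDs.

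The mice fall into sets that the labels do not name. Eif2s3y, a gene of the Y chromosome, had no value between -4.16 and -0.10, which left 142 Eif2s3y-low and 153 Eif2s3y-high mice. Within the latter, transcripts of the epididymis, the duct that stores sperm, were high in 48 and low in 105. Median Lilrb4a was -0.86 in the low set, 0.43 in the high set without epididymis transcripts and -0.22 in the set with them. Lilr4b had medians of -0.78, 0.48 and -0.08, Pira1 of -0.53, 0.50 and -0.26, and Lilra6 of -0.31, 0.43 and -0.19. Every receptor thus had its highest median in the second of these sets, but the ranges of all sets overlapped, and the differences were not tested. For Lilrb4a, for example, the low set reached 1.18 and the high set without epididymis transcripts went down to -1.67. Medians of the residuals after Adgre1 and Cd68 were removed had another order. For Lilrb4a (0.24) and Lilr4b (0.15) they were highest in the set with epididymis transcripts, against 0.06 and 0.0025 in the high set without them. For Pira1 (0.13) and Lilra6 (0.14) they were highest in the high set without them.

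Within each of these sets the same-locus pairs kept the higher residual correlations, with 1 marked difference. Pira1 and Lilra6 had a residual r of 0.82 (95% interval 0.75 to 0.86) in the Eif2s3y-low mice, 0.88 (0.82 to 0.92) in the high set lacking epididymis transcripts and 0.90 (0.82 to 0.94) in those with them. Lilrb4a and Lilr4b had 0.62 (0.50 to 0.71) in the low set against 0.96 (0.94 to 0.97) and 0.95 (0.91 to 0.97) in the others. Differences of r between the sets were not tested. The 2 most discordant mice, 83 and 193, were both in the low set, and without them its r was 0.72 (0.62 to 0.79). The next most discordant mice for this pair, 226 and 37, were in that set too and were kept. Pairs across loci lay between 0.31 and 0.50 in the low set, between 0.54 and 0.56 in the high set without epididymis transcripts and between 0.54 and 0.67 in the set with them. Mouse numbers, the only order in the labels, gave like values in 3 blocks of consecutive numbers: 0.86, 0.87 and 0.91 for Lilrb4a with Lilr4b, and 0.87, 0.88 and 0.84 for Pira1 with Lilra6.

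Among named genes, Itgb2, the beta chain shared by leukocyte integrins, was among the 8 closest genes of all 4 receptors both before and after the removal of Adgre1 and Cd68. Its residual r was 0.80 with Lilrb4a, 0.71 with Lilr4b, 0.72 with Pira1 and 0.62 with Lilra6. Clec4d, a C-type lectin receptor of macrophages, was among the 8 closest of 3 of them, with a residual r of 0.78 for Lilrb4a, 0.83 for Lilr4b and 0.57 for Pira1. The chromosome 10 pair also shared Serpinb9b, a protease inhibitor (0.75 and 0.80), Msr1, a scavenger receptor (0.71 and 0.69), Txnrd1, a thioredoxin reductase (0.73 and 0.69), and Tfec, a transcription factor (0.70 and 0.69). Igsf6 was among the 8 of Lilrb4a (0.70) and Dcstamp, which acts in the fusion of macrophage-lineage cells, among the 8 of Lilr4b (0.72). The chromosome 7 pair shared F10, coagulation factor X (0.62 with Pira1 and 0.64 with Lilra6), and Pilra, an inhibitory paired receptor (0.56 and 0.63). Slc11a1, a metal transporter of phagosomes (0.58), and Gpr137b-ps (0.58) completed the list of Pira1. Tifab (0.60), the activating paired receptor Pilrb1 (0.57) and the nuclease and helicase Dna2 (0.56) completed that of Lilra6. By single probes the closest to Pira1 and to Lilra6 was 1 without a gene symbol in the annotation, probe 10024415007. Its r was 0.96 with Pira1 and 0.98 with Lilra6, and 0.89 and 0.97 after the removal, above that between the 2 receptors. What it measures is not known here. Before the removal the lists also held Cd200r1, Cd84 and Emp3, with Cd200r1 at an r of 0.95 with Lilrb4a.

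Most signalling partners of these receptors tracked them before the macrophage genes were removed. Of 15 partners listed, 13 were measured, and 8 had an r above 0.5 with Lilrb4a, 8 with Lilr4b, 9 with Pira1 and 8 with Lilra6. Of all other probes 6.76%, 6.38%, 5.84% and 4.72% reached that r. Fcer1g, the adaptor of the activating forms, had an r of 0.88 with Lilrb4a, 0.87 with Lilr4b, 0.86 with Pira1 and 0.77 with Lilra6. Its residual r was 0.09, 0.09, 0.17 and 0.26. Tyrobp, a related adaptor, went from 0.91, 0.89, 0.88 and 0.77 to 0.14, 0.15, 0.21 and 0.20. Ptpn6, the phosphatase recruited by inhibitory forms, went from 0.76, 0.73, 0.78 and 0.67 to 0.04, -0.06, 0.19 and 0.12. Blnk, an adaptor, had an r of 0.88 with Lilrb4a and 0.22 after the removal, Ptprc, a leukocyte phosphatase, 0.76 and 0.15, and Csk, a kinase, 0.41 and 0.03. Inpp5d, a lipid phosphatase with that role, kept 0.29, 0.25, 0.25 and 0.10, and the kinase Syk 0.25, 0.13, 0.36 and 0.26. No partner reached a residual r of 0.5 with any receptor, a cut that 1.49% of all other probes reached with Lilrb4a, 0.708% with Lilr4b, 0.0961% with Pira1 and 0.0612% with Lilra6. So small a background makes this count no result about the partners. The highest were Syk with Pira1 (0.36) and Fgr, a kinase of myeloid cells, with Lilra6 (0.37). The list of other paired receptors had 17 measured genes, among them Mpeg1, which is not a receptor. In it Clec4d and Cd200r1 passed 0.5 with Lilrb4a and with Lilr4b, the same 2 and Pilra with Pira1, and Clec4d, Pilra and Pilrb1 with Lilra6. Siglec1, a receptor of tissue macrophages, had the lowest residual r of that list with the chromosome 10 pair, -0.62 for Lilrb4a and -0.52 for Lilr4b, beside -0.25 for Pira1 and -0.16 for Lilra6. The Fc receptor Fcgr1 was lowest for Pira1 (-0.30) and Lilra6 (-0.24).

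Of genes that encode known ligands of the family, 8 were measured. Itgav, the alpha chain of the integrin that Lilrb4a binds, had an r of 0.56 with Lilrb4a and 0.60 with Lilr4b, and of 0.22 and 0.35 after the removal. Itgb3, the beta chain of that integrin, had 0.14 and 0.15, and 0.13 and 0.14 after it. H2-K1, a class I molecule, had a residual r of -0.34 with Lilrb4a, -0.40 with Lilr4b, -0.18 with Pira1 and -0.19 with Lilra6. H2-T23, another class I gene, gave -0.31, -0.33, -0.12 and -0.20. Apoe, whose product is a ligand of the human relative LILRB4, is deleted in these mice. The Apoe probe ran from -1.27 to 1.57, but where it lies relative to the deletion is not given and the pool carries the deletion too, so it checks nothing. Its r was -0.34 with Lilrb4a and -0.14 with Lilra6. The probes of Mag, Omg and Rtn4, myelin-associated ligands of Pirb, had residual r values between -0.40 and 0.11 with the 4 receptors.

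Markers of other cells moved with the residuals to differing degrees. The mean z-score of 11 mast cell genes had a residual r of 0.32 with Lilrb4a, 0.42 with Lilr4b, 0.21 with Pira1 and 0.16 with Lilra6. Its genes did not move as one: with Lilrb4a they ran from -0.13 (Mcpt2) to 0.42 (Tpsab1, a tryptase), with Cpa3, a carboxypeptidase, at 0.40, the receptor tyrosine kinase Kit at 0.03 and the transcription factor Gata2 at -0.02. With Lilr4b they ran from -0.08 to 0.56, with Pira1 from -0.11 to 0.35 and with Lilra6 from -0.17 to 0.30. The score of 20 further macrophage genes had 0.24, 0.20, 0.36 and 0.44. Its genes ran from -0.29 (Cd163) to 0.71 (Msr1) with Lilrb4a and from -0.33 (Cd163) to 0.69 (Msr1) with Lilr4b, with Cybb, the catalytic subunit of the phagocyte oxidase, at 0.66 and 0.58, and the complement gene C1qc at -0.28 and -0.27. The score of 4 lipid-associated macrophage genes had 0.39, 0.36, 0.26 and 0.14. The adipocyte score (10 genes) had -0.41, -0.43, -0.14 and 0.04, and the score of 11 epididymis genes 0.26, 0.24, -0.01 and -0.15. Scores of 12 neutrophil, 8 B cell, 9 T cell and 7 dendritic cell genes lay between -0.24 and 0.10. The part of mast cells and of fat cell content in the covariation was not tested.

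Next to the receptors in the genome, no measured neighbour outside the members followed them as closely as the member of the same locus. Of 9 measured neighbours that are not members, residual r values ran from -0.08 to 0.45 for Lilrb4a and for Lilr4b, with Ascc3, a helicase subunit, the highest for both. They ran from -0.26 to 0.30 for Pira1 and from -0.26 to 0.29 for Lilra6. A residual r of 0.4 was passed by Ascc3 and Gopc (0.43) for Lilrb4a and by Ascc3 for Lilr4b. Of all other probes 5.49% and 2.96% reached that cut. No such neighbour passed it for Pira1 or Lilra6, against 0.354% and 0.511% of all other probes. Sim1 stood at 0.35 for Lilrb4a. Whether neighbours exceed these shares was not tested. Lair1, an inhibitory collagen receptor of leukocytes that lies beyond Lilra6, had an r of 0.85 with Pira1 and 0.74 with Lilra6. After Adgre1 and Cd68 were removed these were 0.30 and 0.19, against 0.86 between the 2 receptors.

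Lep, the leptin gene of fat cells, was not used in picking the receptors, and allowed a test of whether they vary with it. Over all mice no receptor passed the test. With limma, 38.7% of the 22893 probes rose and 28.3% fell with Lep at an adjusted p under 0.05 (Benjamini-Hochberg over all probes), so 57.8% of the calls were higher, and 48.0% with array medians removed. The slope in log2 units per log2 unit of Lep was -0.07 ± 0.13 (SE) for Lilrb4a (adjusted p = 0.648), -0.06 ± 0.12 for Lilr4b (0.701), 0.05 ± 0.11 for Pira1 (0.673) and 0.02 ± 0.08 for Lilra6 (0.80). Their unadjusted p-values ran from 0.593 to 0.763. The 95% interval for Lilrb4a ran from -0.33 to 0.19. Adgre1 rose by 0.36 ± 0.11 (adjusted p = 0.00370) and Cd68 by 0.29 ± 0.10 (0.00706) in that fit. Of the 13 signalling partners 3 rose and 4 fell, and of the 8 ligands 4 rose and none fell.

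With Adgre1 and Cd68 as covariates, all 4 receptors fell with Lep, those of chromosome 10 with the larger slopes. In that limma fit 39.8% of 22891 probes rose and 32.4% fell, so 55.1% of the calls were higher, and 46.7% with array medians removed. Lilrb4a fell by 0.45 ± 0.04 (SE) per log2 unit of Lep (adjusted p = 3.91e-20) and Lilr4b by 0.40 ± 0.05 (3.62e-14). Pira1 fell by 0.23 ± 0.05 (1.15e-05) and Lilra6 by 0.16 ± 0.05 (0.00372). Whether these slopes differ between the receptors was not tested. The 4 calls held under all 7 alternatives, with the largest adjusted p at 0.0210, for Lilra6. Among these, the probe filter and the deposited limits could not change the slopes, since no receptor value was missing or at a limit. Within the sets of mice every such slope was below 0, from -0.27 (Lilrb4a) to -0.05 ± 0.06 (Lilr4b) in the low set, from -0.41 to -0.25 in the high set without epididymis transcripts and from -0.48 to -0.28 in the set with them. In the block of the highest mouse numbers the slopes of Pira1 (-0.04 ± 0.11) and Lilra6 (-0.0016 ± 0.10) were close to 0.

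Beside the receptors, 10 of the 13 signalling partners fell and 2 rose with Lep in this fit, against 32.4% and 39.8% of all probes. Inpp5d fell by 0.41 ± 0.04 (limma adjusted p = 1.43e-18), Plcg2, a phospholipase below Syk, by 0.34 ± 0.04 (1.04e-14), and Ptpn6 by 0.29 ± 0.04 (1.56e-09). The risers were Hcst, an adaptor (0.09 ± 0.03), and Ptpn11 (0.19 ± 0.05), and Btk did not pass. Of the 17 genes listed as other paired receptors 8 fell and 3 rose. Clec4d, in that list, fell by 0.82 ± 0.08 (limma adjusted p = 2.25e-18), and Itgb2 fell by 0.27 ± 0.04 (5.10e-12). The fall with Lep was thus not particular to the 4 receptors. Of the 8 ligands 4 rose, namely H2-K1, Mag, Omg and Rtn4, and none fell, with the risers near the share of all probes. The 9 adipocyte genes tested all rose and 9 of 11 mast cell, 6 of 8 B cell and all 11 epididymis genes fell, the last with a median slope of -1.85. Other lists were mixed: 5 of 20 macrophage genes rose and 7 fell, and 3 of 12 neutrophil genes rose and 3 fell. Of 7 dendritic cell genes 4 rose and 3 fell, and of 9 T cell genes 1 rose and 4 fell. Their part in the receptors' slopes was not tested. The median slope was -0.13 over the partners and 0.02 over all probes.

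The slopes on Lep had opposite signs in the Eif2s3y-low and Eif2s3y-high mice. In the low set the slopes were above 0 for every receptor, at 0.64 ± 0.15 (SE, n = 142) for Lilrb4a, 0.68 ± 0.12 for Lilr4b, 0.55 ± 0.12 for Pira1 and 0.34 ± 0.09 for Lilra6. In the high set without epididymis transcripts the slopes were -0.69 ± 0.17 (n = 105), -0.69 ± 0.18, -0.45 ± 0.14 and -0.39 ± 0.11. In the set with them they were -1.03 ± 0.28 (n = 48), -1.03 ± 0.28, -0.77 ± 0.24 and -0.59 ± 0.22. A limma interaction tested the difference of the slopes, high minus low. It was -1.03 ± 0.20 for Lilrb4a (adjusted p = 1.22e-05), -1.10 ± 0.19 for Lilr4b (8.80e-07), -0.71 ± 0.17 for Pira1 (0.000470) and -0.45 ± 0.14 for Lilra6 (0.00632). Of all probes tested, 22.4% had a higher and 13.6% a lower slope in the high set, so 62.2% of the calls were higher, and 41.9% with array medians removed. Adgre1 (-0.97 ± 0.19) and Cd68 (-0.88 ± 0.17) differed in that direction too, as did 9 of the 13 signalling partners, against 1 partner, Ptpn11, in the other.

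At given levels of Adgre1 and Cd68 the difference was closer to 0 for all 4 receptors, and it passed the test for Lilr4b alone. Whether it varies between the receptors was not tested. With Adgre1 and Cd68 as covariates in each cluster, 16.8% of probes had a higher and 9.48% a lower slope in the high set. The difference was -0.37 ± 0.09 for Lilr4b (limma adjusted p = 0.00104). For Lilrb4a it was -0.11 ± 0.08 (0.309, 95% interval -0.27 to 0.05), for Pira1 0.02 ± 0.10 (0.912) and for Lilra6 0.0044 ± 0.11 (0.981). The 6 alternatives belong to the difference without these covariates, and the covariate fit is among them. Over them the limma adjusted p for Lilr4b ran from 6.03e-08 to 0.00104, the last being that of the covariate fit. The covariate fit was not itself repeated under alternatives.

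The interferon response score, the mean z-score of 14 measured interferon-induced genes, gave slopes whose direction changed with the setting. With Adgre1 and Cd68 as covariates, 31.2% of probes rose and 17.1% fell with it in the limma fit, so 64.5% of the calls were higher, and 47.1% with array medians removed. Lilrb4a fell by 0.09 ± 0.03 log2 units per unit of the score (adjusted p = 0.0273) and Lilr4b by 0.15 ± 0.04 (0.000120). Pira1 (-0.05 ± 0.04, 0.246) and Lilra6 (0.01 ± 0.04, 0.787) did not pass. With the Eif2s3y cluster as a block the Lilrb4a slope turned to 0.11 (adjusted p = 0.00586), Lilr4b was at 0.0012 (0.983), Pira1 at 0.08 (0.0833) and Lilra6 passed at 0.11 (0.0218). Over the 7 alternatives the adjusted p ran from 2.84e-05 to 0.854 for Lilrb4a and from 2.17e-09 to 0.983 for Lilr4b. In the Eif2s3y-low mice alone the slope was 0.19 ± 0.04 for Lilrb4a and -0.02 ± 0.04 for Lilr4b. In the high set lacking epididymis transcripts it was 0.03 ± 0.08 and -0.02 ± 0.09, and in the set with them -0.18 ± 0.11 and -0.24 ± 0.12. The differences between sets and between these genes were not tested.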

How the data were processed

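RNA of 295 mice was measured on 2-colour arrays, 1 per mouse. The authors deposited 1 log10 ratio per probe and mouse. Their background correction, normalization and genome build are not given in the sources used here, and base, centring and direction were read from the values. The series text gives 295 mice and the sample text 330. For 1 sample the number in the title differs from that in the source name, and the title was used. Nothing says whether any mice share a litter or a cage.

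A factor of 3.32 turned these into log2 ratios. Probes measured in at least 90% of mice were kept (22894, with 493 left out), and 7762 gaps were filled with the probe mean. No receptor value was missing or at a deposited limit. Genes were named through the platform annotation and RefSeq identifiers (12652 probes matched), with the most variable probe per gene. Residuals come from least squares on Adgre1 and Cd68. Slopes were tested with limma 3.58.1 in R 4.3.3, Benjamini-Hochberg adjusted over all probes. The rest used Python 3.11.15 with SciPy 1.17.1, pandas 2.3.3 and NumPy 2.4.6. Scripts were tested on simulated data. Arrays give no read depth, and their number limits the precision.

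The receptors and the gene lists were chosen with earlier results of these data known. The rule for names covered all members, the measured partner and ligand genes, the 8 genes closest to each receptor, the 5 nearest measured genes on either side, and Adgre1, Cd68, Lep, Apoe and Eif2s3y, with neighbours given mostly as ranges. Other genes named from the lists (mast cell and macrophage genes, Siglec1, Fcgr1) and the unnamed probe were chosen after their values were seen. Modes were counted with a Silverman bandwidth on 512 points and a prominence of at least 5% of the highest peak. The Eif2s3y and epididymis sets were made from the data and are not groups of the study.

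Alternatives covered other measures of macrophage level, array medians, the epididymis arrays, the probe filter, the deposited limits, blocks of mouse number and the Eif2s3y cluster.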

Additional observations from a re-analysis of the deposited data

Results flagged for a closer look

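The slope on Lep differed between Eif2s3y-high and Eif2s3y-low mice for all 4 receptors, by the limma interaction. The difference, high minus low, was -1.03 for Lilrb4a, -1.10 for Lilr4b, -0.71 for Pira1 and -0.45 for Lilra6 in log2 units per log2 unit of Lep. Adgre1 (-0.97) and Cd68 (-0.88) differed likewise. With both as covariates in each cluster the difference was -0.11 for Lilrb4a (limma adjusted p = 0.309), -0.37 for Lilr4b (0.00104), 0.02 for Pira1 (0.912) and 0.0044 for Lilra6 (0.981).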

How the results depend on the processing

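No paired analysis was possible because the labels put all mice in 1 group. Of 104 slopes under alternatives, 83 kept their direction and their side of the threshold. Of 146 correlations, medians of correlations and counts, which have no test, 122 stayed close to the value reported, within its 95% interval for a correlation and within 1.5 times for a count of probes. All 42 values of the Lep fit with Adgre1 and Cd68 as covariates are among these. The totals include the looser probe filter and the leaving out of values at the deposited limits. In both settings every receptor's slope, correlation and number of modes equalled the main value, since no receptor value was missing or at a limit. Such rows say nothing about robustness. The base of the logarithm was read from the values.

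For Lilrb4a and Lilr4b, r before the removal of Adgre1 and Cd68 was 0.984 by Spearman, 0.941 in the Eif2s3y-low mice, 0.961 there without mice 83 and 193, 0.990 in the high set without epididymis transcripts and 0.988 with them. After the removal it was 0.619, 0.717, 0.959 and 0.949 in these sets. For Pira1 and Lilra6, r before the removal was 0.885 in the high set without epididymis transcripts, and after it 0.816, 0.810 and 0.899 in the low set, in the low set without mice 83 and 193, and in the set with epididymis transcripts. With the mean z-score of the macrophage list removed it was 0.806. The median of the 4 pairs across loci was 0.766 before the removal in the high set without epididymis transcripts. After it, the median was 0.618 with Adgre1 alone, 0.409 in the low set and 0.421 there without mice 83 and 193. The Gaussian mixture gave 4 receptors with 2 components after the removal.

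The Lep slopes over all mice, none called, changed sign for Lilra6 with array medians removed (-0.0256), for Lilrb4a (0.145) and Lilr4b (0.162) without the epididymis arrays, for Pira1 (-0.0504) and Lilra6 (-0.0515) with 3 blocks of mouse number in the fit, and for Lilrb4a (0.0706) and Lilr4b (0.0743) with the Eif2s3y cluster as a block.

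For the interferon score, 3926 probes rose with array medians removed, and 2682 rose and 2119 fell without the epididymis arrays, against 7142 and 3923. Lilrb4a no longer passed with array medians removed (-0.0746), without the epididymis arrays (-0.0130) or with blocks of mouse number (-0.0717), and turned to 0.111 with the Eif2s3y block. With that block Lilr4b (0.00121) and Pira1 (0.0788) changed sign and Lilra6 (0.109) passed. With the macrophage list as covariate Pira1 passed (-0.126) and Lilra6 was -0.0373. Lilra6 was -0.0107 with array medians removed and -0.0382 without the epididymis arrays.

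For the interaction, 4986 probes were lower with array medians removed, against 3107, and 2925 higher without the epididymis arrays, against 5121. With Adgre1 and Cd68 as covariates in each cluster, chosen after seeing the data as was leaving out mice 83 and 193, Lilrb4a did not pass (-0.113) and Pira1 (0.0183) and Lilra6 (0.00438) changed sign. The causes were not tested.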
